A study of Mus musculus with 28 samples.

Results

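The collagen genes of mouse dorsal skin were examined on Illumina BeadChip arrays, which read each probe as an average over its beads. A gene belonged to the set if its symbol in the platform annotation is Col, a number, the letter a and a number, which held for 59 of 25697 probes and 37 genes. A probe counted as detected where its detection p was below 0.01 on 6 or more arrays. This left 25 probes of 20 collagen genes, among 12834 detected probes and 9045 tested genes in all. The arrays held 6 P15 mutants and 6 P15 controls, aged 15 days, and 6 P10 mutants and 10 P10 controls, aged 10 days. Mutants carried K14-cre and a conditional Gab1 allele (Gab1fl), and K14-cre acts in the keratin 14 keratinocytes of epidermis and hair follicle. The labels call the other mice controls and state no genotype for them. All mice were of the strain background given as C57/BL6;129Ola mixed, and the RNA was total RNA of whole dorsal skin. In such bulk samples, fewer cells of a type and less RNA per cell cannot be told apart. Whether each replicate was its own animal is not stated, so a p-value here measures only the spread between samples, which may be technical.

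Collagens are secreted proteins in which alpha chains wind around each other into a rope-like helix, and most types mix chains of several genes. In skin, fibroblasts of the dermis make the fibrillar collagens, chiefly types I and III, which give tensile strength, with type V in the fibril core. Type VI forms beaded filaments between fibrils and cells. Basement membranes, the sheets under the epidermis and around vessels, follicles, fat and muscle fibres, are built on networks of type IV. Type VII anchors the epidermal sheet to the dermis, and type XVII is a transmembrane protein that ties basal keratinocytes to it. FACIT collagens attach to the surface of fibrils. Chains are hydroxylated and folded in the endoplasmic reticulum, trimmed outside the cell and crosslinked by lysyl oxidases.

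By class, 6 of 11 fibrillar genes on the array were detected (Col1a1, Col1a2, Col3a1, Col5a1, Col5a2 and Col5a3). So were 7 of 9 basement membrane genes (Col4a1, Col4a2, Col4a5, Col4a6, Col7a1, Col15a1 and Col18a1) and 2 of 5 network genes (Col6a1 and Col6a2). The FACIT class gave 2 of 6 (Col14a1 and Col16a1), the transmembrane class 2 of 4 (Col17a1 and Col23a1) and the remaining collagens 1 of 2 (Col26a1). Of the 17 genes below the detection rule, 11 were detected on 0 arrays: Col11a1, Col27a1, Col4a3, Col6a6, Col8a2, Col10a1, Col9a2, Col9a3, Col19a1, Col13a1 and Col25a1. The other 6 were Col24a1 with 5 arrays, Col28a1 with 3, Col2a1 with 2, and Col11a2, Col4a4 and Col9a1 with 1 each. For 8 other collagen genes (Col6a3, Col6a4, Col6a5, Col8a1, Col12a1, Col20a1, Col21a1 and Col22a1) no probe carried the symbol, and they were not analysed here. The members nearest to the rule from inside were Col5a2 and Col5a3, each detected on 15 of 28 arrays. The chains known from cartilage (types II, IX, X and XI) were all among the undetected genes, and 0 of 5 cartilage markers were detected. Col1a2, Col5a2, Col5a3, Col14a1, Col23a1, Col26a1 and Col4a6 were detected on some arrays only (Col1a2 on all but 1 of the P15 mutants).

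Promoter windows of 300 bases, most of them upstream of the start site, from RefSeq on GRCm38.p6, were matched to 16 of the 20 detected genes. Windows are shown first for 3 fibrillar genes that were higher in P10 mutants and fell with age in mutants (below). Capitals mark CCAAT, the box found in many collagen promoters, GGGCGG, a GC box, or TATAAA, on either strand. Col1a2 lies at chr6:4505368-4505667 on the plus strand, Col3a1 at chr1:45311288-45311587 on the plus strand and Col5a1 at chr2:27886175-27886474 on the plus strand.
Col1a2: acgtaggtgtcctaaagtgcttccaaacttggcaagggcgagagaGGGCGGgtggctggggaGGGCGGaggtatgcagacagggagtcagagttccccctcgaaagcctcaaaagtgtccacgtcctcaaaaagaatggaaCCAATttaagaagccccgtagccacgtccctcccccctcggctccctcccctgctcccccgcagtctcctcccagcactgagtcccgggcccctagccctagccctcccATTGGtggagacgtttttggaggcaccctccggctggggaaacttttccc
Col3a1: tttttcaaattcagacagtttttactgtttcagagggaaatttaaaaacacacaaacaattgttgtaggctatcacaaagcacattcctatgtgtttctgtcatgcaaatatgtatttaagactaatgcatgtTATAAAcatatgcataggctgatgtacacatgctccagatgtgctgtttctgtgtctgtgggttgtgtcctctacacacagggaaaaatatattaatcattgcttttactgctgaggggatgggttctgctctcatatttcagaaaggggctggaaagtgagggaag
Col5a1: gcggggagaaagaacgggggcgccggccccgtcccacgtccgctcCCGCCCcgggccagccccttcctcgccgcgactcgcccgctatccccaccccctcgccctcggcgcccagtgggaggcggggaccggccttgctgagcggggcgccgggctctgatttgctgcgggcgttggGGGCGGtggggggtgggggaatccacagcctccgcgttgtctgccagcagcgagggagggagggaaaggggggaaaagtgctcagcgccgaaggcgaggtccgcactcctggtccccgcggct
Col1a2 held 2 CCAAT and 2 GGGCGG matches, Col5a1 held 2 GGGCGG matches, and Col3a1 held 1 TATAAA match. CCAAT stood in 9 of the 18 windows of detected members and in 37.4% of all 32851 windows, GGGCGG in 13 of 18 and 35.7%, and TATAAA in 2 of 18 and 13.6%. The 18 windows belong to 16 genes, and those of Col4a1 and Col4a2 overlap (below), so a GGGCGG match in their shared bases counts for both. These are matches of letters, not tested sites.

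Col4a1 and Col4a2 form the chain pair of the common type IV network and are read in opposite directions from neighbouring starts, and both were higher in P15 mutants (below). Their windows follow, with the bases common to both in capitals. Col4a1 lies at chr8:11312777-11313076 on the minus strand and Col4a2 at chr8:11312555-11312854 on the plus strand.
Col4a1: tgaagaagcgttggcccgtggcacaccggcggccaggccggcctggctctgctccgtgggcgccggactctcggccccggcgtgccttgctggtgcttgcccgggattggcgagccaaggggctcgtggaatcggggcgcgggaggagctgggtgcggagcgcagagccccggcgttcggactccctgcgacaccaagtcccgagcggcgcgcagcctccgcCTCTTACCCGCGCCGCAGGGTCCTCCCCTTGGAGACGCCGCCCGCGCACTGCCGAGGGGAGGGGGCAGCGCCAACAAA
Col4a2: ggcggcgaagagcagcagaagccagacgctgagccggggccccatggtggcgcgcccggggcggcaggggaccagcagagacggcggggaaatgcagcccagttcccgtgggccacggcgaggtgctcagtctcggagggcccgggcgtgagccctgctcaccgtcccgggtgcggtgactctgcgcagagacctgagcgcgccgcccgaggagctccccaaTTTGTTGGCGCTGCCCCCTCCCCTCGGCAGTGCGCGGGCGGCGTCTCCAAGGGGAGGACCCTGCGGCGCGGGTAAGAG
The start sites lay 21 bases apart, and the windows shared 78 bases, read from opposite strands. In the RefSeq gene order, 4 pairs of detected collagen genes were direct neighbours among protein-coding genes: Col4a1 with Col4a2, Col3a1 with Col5a2, Col6a1 with Col6a2, and Col4a5 with Col4a6.

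Differences were fitted with limma on normalized log2 signals with group and slide as terms, and a gene passed where its adjusted p over all 9045 genes was below 0.05. Slides 1 and 2 each held 3 P10 mutants and 3 P10 controls, and slides 3 and 4 each held 3 P15 mutants, 3 P15 controls and 2 P10 controls. Genotype effects and the age change in controls were thus measured within slides. Mutants took the first 3 positions of each slide, with controls after them, so genotype and position cannot be told apart. On slides 3 and 4 the P10 controls came after the P15 controls, so age and position cannot be told apart in controls either. Between 8836 and 13610 probes were detected per array, and the number of arrays limits the precision. Both the lowest count of detected probes (8836) and the highest median raw signal (172) belonged to P15 mutant replicate 5 on slide 3. That array gave the highest signal of its group for 7 of the 20 collagen genes, among them Col1a2, Col3a1, Col5a2 and Col5a3. The log2 signal of Gab1, the check of the labels, lay between 9.91 and 10.54 in P15 mutants, against 11.29 to 11.85 in P15 controls, and between 9.85 and 10.17 in P10 mutants, against 11.01 to 11.64 in P10 controls. It was lower by 2.51-fold in mutants at P15 (limma adjusted p = 2.20e-09) and by 2.47-fold at P10 (1.48e-08).

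At P10, mutant skin had higher signals of fibrillar and type VI collagen genes. Of the 20 collagen genes, 9 rose in mutants and 0 fell, where 9.39% of all genes rose and 9.26% fell. The 9 were Col1a2, Col3a1, Col5a1, Col5a2 and Col5a3 among 6 fibrillar genes, Col6a1 and Col6a2 (both network genes), Col4a1 among 7 basement membrane genes and Col14a1 among the FACIT genes. The median difference was 0.46 over the 20 genes on the log2 scale, against -0.01 over all genes tested. By class the median was 1.04 for fibrillar, 0.76 for network, 0.05 for basement membrane and 0.04 for transmembrane collagens. The mutants and the controls of the same slides did not overlap for 6 of the 20 genes (Col1a1, Col3a1, Col5a2, Col5a3, Col4a1 and Col6a2), where 9.32% of all genes did not overlap.

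Col3a1, the chain of type III collagen, which is prominent in young skin, had the largest difference. Its normalized log2 signal was 11.87, 12.25 and 12.70 (lowest, median, highest) in 6 P10 mutants, against 9.53, 10.12 and 11.35 in 10 P10 controls. Every mutant lay above every control. The fitted rise was 3.43-fold (log2 difference 1.78, SE 0.28, limma adjusted p = 8.78e-05). A second Col3a1 probe gave a smaller rise of 1.55-fold (log2 0.64, SE 0.17, limma adjusted p over all detected probes = 0.00946).

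The type I chains, the main protein of dermal fibrils, were less clear. Col1a2 had log2 signals of 9.27, 10.99 and 11.60 (lowest, median, highest) in P10 mutants, against 8.02, 9.76 and 10.94 in P10 controls. The groups overlapped, with P10 mutant 1 lowest among the mutants and inside the range of the controls. Col1a2 was 2.46-fold higher (log2 1.30, SE 0.43, limma adjusted p = 0.0328), and this call ended when any 1 of P10 mutants 2 or 3 or P10 controls 5, 6, 7 or 10 was left out (adjusted p from 0.0618 to 0.116). It also ended on slide 2 alone (log2 0.55, adjusted p = 0.241). Col1a1 had log2 signals of 12.86, 13.09 and 13.48 in P10 mutants, against 11.99, 12.50 and 12.80 in P10 controls. The groups did not overlap, yet its log2 difference of 0.53 (SE 0.19) gave an adjusted p of 0.0505, just outside the threshold. Leaving out P10 mutant 3 or P10 control 1, 4 or 8 brought it inside (adjusted p from 0.0304 to 0.0486).

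All 3 type V genes, whose product sits in the fibril core and sets fibril width, rose. Col5a2 had log2 signals of 7.02, 7.42 and 7.55 in P10 mutants, against 5.71, 6.25 and 6.61 in P10 controls, with no overlap. Its rise was 2.03-fold (log2 SE 0.22, limma adjusted p = 0.00212), and 6 of 6 mutants and 8 of 10 controls detected it. Col5a3, a chain known from muscle and fat, had 6.72, 7.18 and 7.24 in P10 mutants, against 5.34, 6.04 and 6.34 in P10 controls, again apart. Its rise was 2.07-fold (SE 0.25, limma adjusted p = 0.00402), with detection on 6 of 6 mutants and 5 of 10 controls. Col5a1, the chain common to most type V molecules, had 11.70, 12.19 and 12.34 in P10 mutants, against 11.41, 11.69 and 12.03 in P10 controls. P10 mutant 3, the lowest, lay among the controls. The rise of Col5a1 was 1.47-fold (SE 0.12, limma adjusted p = 0.00221).

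Of the type VI chains, Col6a2 had log2 signals of 10.51 at the lowest and 11.21 at the highest (mean 10.92 ± 0.25, SD, n = 6) in P10 mutants, against 9.54, 10.19 and 10.60 in P10 controls. The 6 controls of the mutants' own slides reached only 10.27 and lay below every mutant. Its rise of 1.93-fold had the smallest adjusted p of the collagen genes at P10 (log2 0.95, SE 0.13, limma adjusted p = 1.70e-05). Col6a1, its partner, had 12.30, 12.68 and 13.08 in P10 mutants, against 11.79, 12.18 and 12.37 in P10 controls, and only P10 mutant 3 lay inside the controls' range. It rose 1.49-fold (log2 SE 0.14, limma adjusted p = 0.00417), and its second probe 1.53-fold. Col14a1, a FACIT chain bound to fibrils, rose 1.69-fold (SE 0.17, limma adjusted p = 0.00351), with 7.76, 7.79 and 8.36 in P10 mutants, against 6.32, 7.08 and 7.89 in P10 controls. P10 control 7, the highest control, overlapped the mutants.

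**Figure D1:**
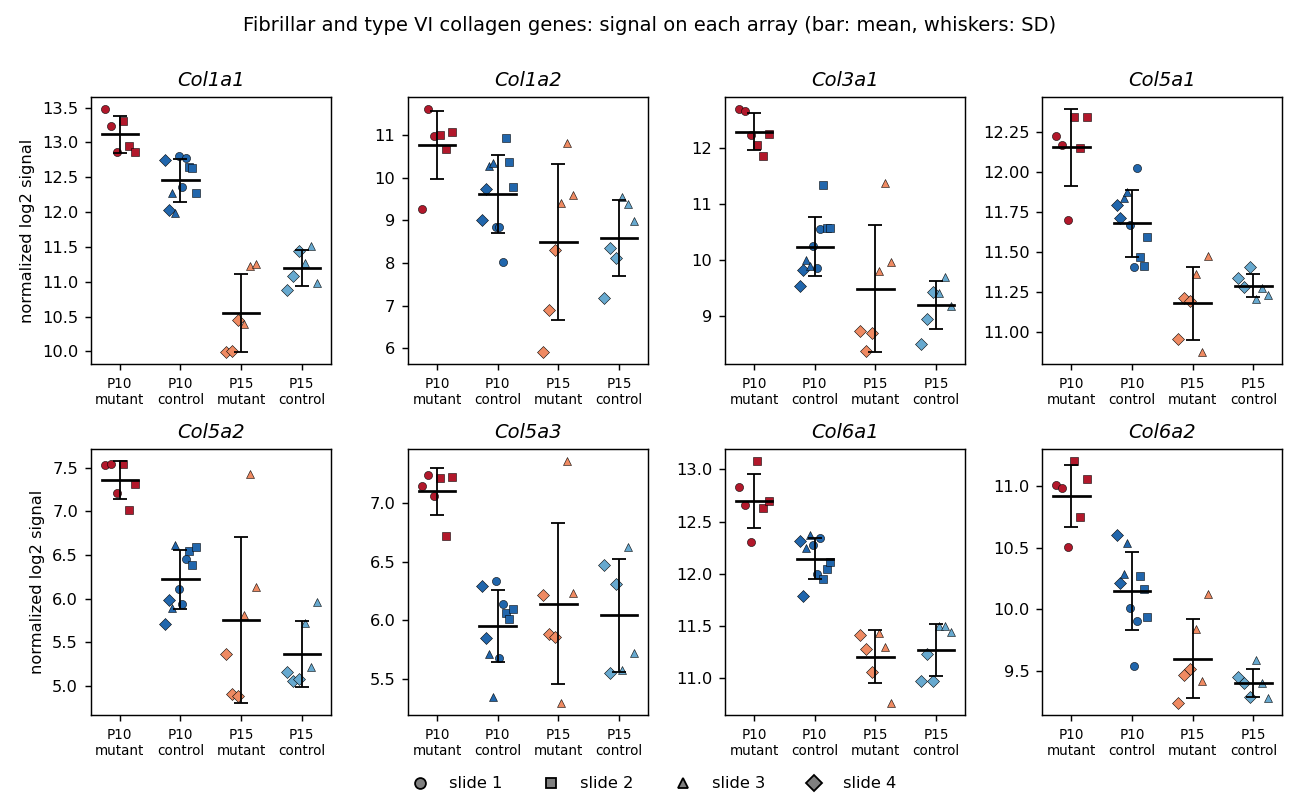
Normalized log2 signal of the 6 fibrillar and 2 type VI collagen genes on each of 28 arrays, by group. Each point is 1 array, its shape gives the slide, the bar is the group mean and the whiskers are the SD. P10 mutants lie above P10 controls for Col1a1, Col3a1, Col5a2 and Col5a3, and 1 P15 mutant (replicate 5) lies far above its group for Col3a1 and Col5a2.

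Of the 7 basement membrane genes 1 rose at P10 and 0 fell. Col4a1 had log2 signals of 12.95, 13.19 and 13.51 in P10 mutants, against 12.21, 12.68 and 12.99 in P10 controls. It rose 1.54-fold (log2 SE 0.11, limma adjusted p = 4.39e-04), and every mutant lay above every control of its slides. Its partner Col4a2 had a log2 difference of 0.35 (SE 0.17, adjusted p = 0.148). Col4a5 and Col4a6, the chain pair of a second type IV network found under the epidermis, had differences of -0.26 and 0.05 (adjusted p = 0.194 and 0.879). Col4a6 was dim, detected on 5 of 6 P10 mutants and 7 of 10 P10 controls. Col7a1, the anchoring fibril chain, differed by 0.03, Col15a1 by 0.39 and Col18a1 by -0.20 (adjusted p from 0.120 to 0.944), so none of these passed. The second Col18a1 probe differed by 0.12 and did not pass either. Col15a1, found around vessels and muscle fibres, did pass without P10 control 7 (log2 0.51, adjusted p = 0.0336). Neither transmembrane gene passed, at -0.04 for Col17a1 and 0.12 for Col23a1, nor did the FACIT gene Col16a1 at -0.11 and Col26a1 at 0.10.

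Markers of several cell types also differed at P10, some higher and some lower, where 9.39% of all genes rose and 9.26% fell. Of 10 fibroblast markers, all detected, 7 rose and 0 fell (median log2 difference 0.39), with a summed linear signal of 22103 to 29724 in P10 mutants and 17116 to 22004 in the P10 controls of slides 1 and 2. Of 13 detected skeletal muscle markers, 5 rose (median 1.55), with sums of 53066 to 95508 in those mutants and 16242 to 112847 in those controls. The highest control sum was that of P10 control 7. Of 7 detected adipocyte markers (Fabp4 and Retn were not detected) 5 rose, with sums of 12867 to 20712 in mutants and 6820 to 13925 in controls. Macrophage and leukocyte markers gave 2 rises among 3, smooth muscle and pericyte markers 1 rise and 1 fall among 6, endothelial markers 1 fall among 6 and basal keratinocyte markers 1 rise among 6. Schwann markers gave 1 rise among 2, and dermal papilla and suprabasal markers 0 passes. After adjustment for the muscle markers' score 9 collagen genes rose, 8 of them among the 9 above, and Col6a1 did not (log2 0.41, adjusted p = 0.0508). Without P10 control 7 the count was also 9, with Col15a1 in place of Col1a2. The muscle score lay between 1.45 and 2.42 in P10 mutants and below that in every P10 control but P10 control 7 (2.70). The adjusted fit therefore hardly separates genotype from the score. The part of muscle, fibroblast, fat and other cell content in the result was not tested. With median scaling in place of quantile normalization 6 genes rose, and Col4a1 (log2 0.29), Col5a1 (0.34) and Col6a1 (0.32) did not pass. On slide 1 alone, 8 rose and Col7a1 (log2 -0.33, adjusted p = 0.0185) and Col4a5 fell, and on slide 2 alone 9 rose.

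At P15 the type IV pair Col4a1 and Col4a2 was higher in mutants and the type I chain Col1a1 was lower. Of the 9 genes that rose at P10, Col4a1 passed again. In P15 mutants 3 of the 20 rose and 2 fell, where 9.53% of all genes rose and 10.1% fell, so the share of collagen genes in each direction lay near that of all genes. The median difference was -0.01 over the 20 genes, against 0.02 over all genes tested. Col4a1, Col4a2 and Col23a1 were higher, and Col1a1 and Col16a1 were lower.

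Col4a1 had log2 signals of 12.08, 12.34 and 12.41 in P15 mutants, against 11.57, 11.78 and 11.91 in P15 controls. Every mutant lay above every control, and it was the 1 gene of the 20 without overlap, where 6.83% of all genes had none. It rose 1.43-fold (log2 0.51, SE 0.11, limma adjusted p = 0.00189), close to its size at P10. The difference was 0.62 on slide 3 alone (adjusted p = 0.0821) and 0.41 on slide 4 alone (0.224), neither of which passed. Col4a2 had log2 signals of 10.17, 10.77 and 11.15 in P15 mutants, against 9.88, 10.21 and 10.46 in P15 controls, and all mutants but P15 mutant 4, which lay below the controls of its slide, were above the highest control. It rose 1.44-fold (SE 0.17, limma adjusted p = 0.0281). That call ended when any 1 of P15 mutants 2, 5 or 6 or P15 controls 2 or 3 was left out (adjusted p from 0.0516 to 0.0742) and with adjustment for the muscle score (0.0632). The other basement membrane genes had differences between -0.23 for Col15a1 and 0.06 for Col4a5 on the probes that stand for them, none past the threshold. The second Col18a1 probe differed by 0.38 and did not pass either.

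Col1a1 had log2 signals of 10.00, 10.42 and 11.25 in P15 mutants, against 10.88, 11.18 and 11.51 in P15 controls, with overlap. It fell to 64.2% of the control level (log2 difference -0.64, SE 0.19, limma adjusted p = 0.0174). Col1a1 differed by -0.98 on slide 4 alone (adjusted p = 0.0469) and by -0.29 on slide 3 alone (0.577). P15 mutants 5 and 6, both on slide 3, lay inside the controls' range. The call ended without P15 control 3 (-0.56, adjusted p = 0.0509) and with adjustment for the muscle score (-0.54, adjusted p = 0.0518). Col1a2, its partner chain, had 5.92, 8.86 and 10.82 in P15 mutants, against 7.19, 8.67 and 9.56 in P15 controls, and 5 of 6 mutants and 6 of 6 controls detected it. The mutants spread over a far wider range than the controls, and the log2 difference of -0.10 (SE 0.43) did not pass. Col3a1, Col5a1 and Col5a3 had differences of 0.29, -0.11 and 0.10, all short of the threshold, and 3 of 6 mutants and 1 of 6 controls detected Col5a3. Col5a2 did not pass either and was detected on 1 of 6 mutants and 0 of 6 controls, so its difference was not measured. Without P15 mutant 5 that of Col3a1 was -0.02, and 4 of the 20 collagen genes passed, Col4a2 no longer among them.

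Col16a1, a FACIT chain of papillary dermis and the dermal-epidermal zone, had log2 signals of 11.30, 11.83 and 12.07 in P15 mutants, against 12.05, 12.20 and 12.44 in P15 controls. Only the highest mutant reached the lowest control. It fell to 72.3% of the control level (log2 -0.47, SE 0.11, limma adjusted p = 0.00335), with -0.42 on slide 3 alone and -0.51 on slide 4 alone (adjusted p = 0.216 and 0.135). Col23a1, a transmembrane collagen of epidermis, was dim, with 5 of 6 mutants and 2 of 6 controls detecting it and log2 signals of 6.12, 6.47 and 6.89 in P15 mutants, against 5.43, 6.07 and 6.51 in P15 controls. It was 1.35-fold higher (SE 0.15, limma adjusted p = 0.0427). Leaving out any 1 of P15 mutants 2, 3, 4 or 6 or P15 controls 1, 3 or 5 ended the call (adjusted p from 0.0541 to 0.127). Col17a1 differed by -0.32 (SE 0.16, adjusted p = 0.152) on the probe that stands for it, and by -0.20 and -0.51 on its other probes, of which the last passed (limma adjusted p over all detected probes = 0.00347).

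Marker levels at P15 were as follows. Of the fibroblast markers 3 of 10 rose (Dcn, Fbln1 and Thy1), with sums of 13073 to 15430 in P15 mutants and 10671 to 12538 in P15 controls. Of the muscle markers 0 of 13 passed, with sums of 1822 to 54177 in mutants and 1827 to 29382 in controls. Of the adipocyte markers 2 of 7 fell, with sums of 3418 to 5984 in mutants and 4752 to 7324 in controls. Acta2 and Tagln rose among 6 smooth muscle and pericyte markers, 1 of 3 macrophage and leukocyte markers and 1 of 4 dermal papilla markers rose, and 1 of 4 suprabasal and 1 of 2 Schwann markers fell. Endothelial and basal keratinocyte markers gave 0 passes among 6 each. After adjustment for the muscle score 2 collagen genes passed at P15. The part of cell content in the P15 differences was not tested.

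**Figure D2:**
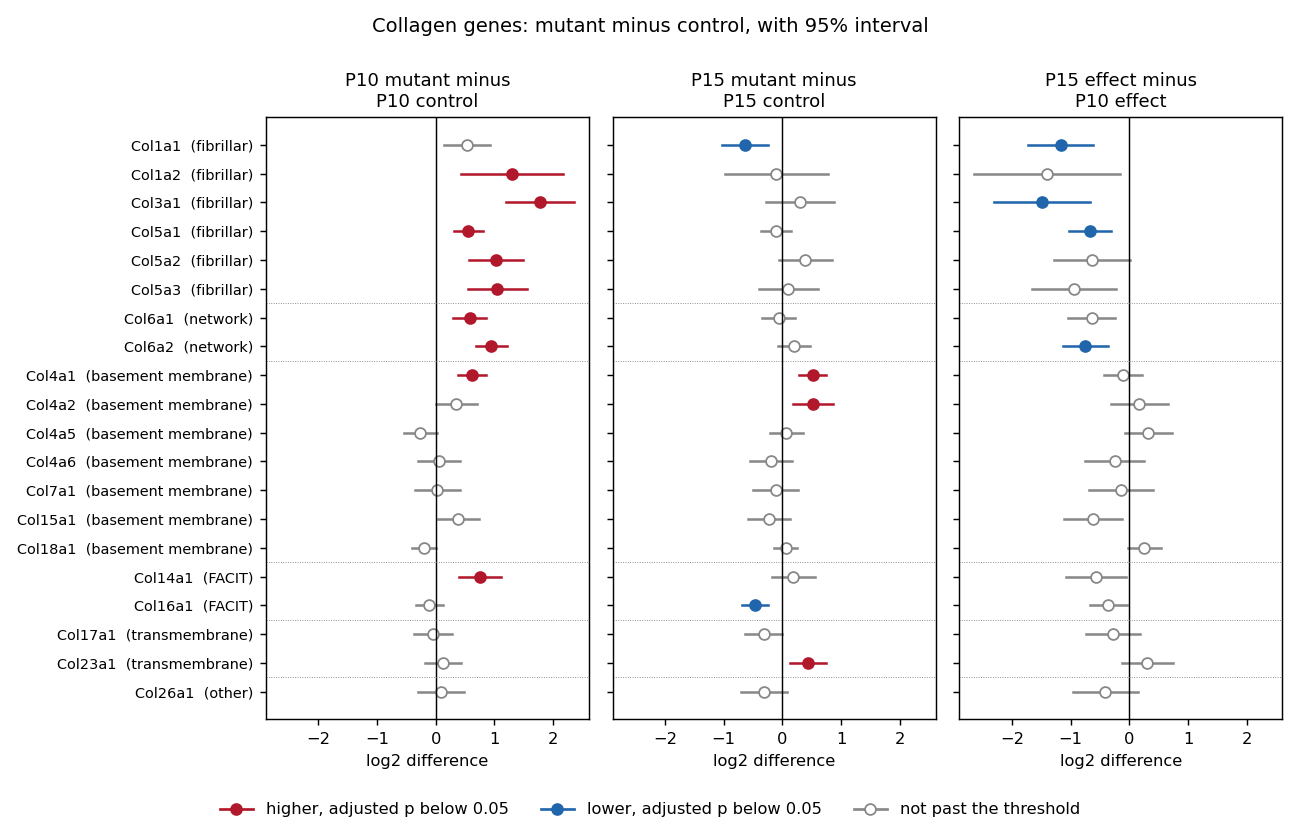
Log2 difference with 95% interval for each of the 20 collagen genes, grouped by class: P10 mutant minus control, P15 mutant minus control, and the P15 effect minus the P10 effect. Filled points passed limma's adjusted p of 0.05. In the P10 panel 9 points are higher, among them 5 of 6 fibrillar genes, and in the third panel 4 are lower.

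The test of the difference between ages, the P15 effect minus the P10 effect, passed for 4 of the 20 genes. All 4 were lower, and 0 were higher, where 1.89% of all genes were lower and 1.88% higher. They were 3 fibrillar genes and 1 type VI chain, and 0 of 7 basement membrane genes passed. Col1a1 had effects of -0.64 at P15 and 0.53 at P10, a difference of -1.17 (SE 0.27, limma adjusted p = 0.0126). Col3a1 had effects of 0.29 at P15 and 1.78 at P10, a difference of -1.48 (SE 0.40, limma adjusted p = 0.0336). Those of Col6a2 were 0.20 and 0.95, a difference of -0.75 (SE 0.19, limma adjusted p = 0.0224). Those of Col5a1 were -0.11 and 0.56, a difference of -0.67 (SE 0.17, limma adjusted p = 0.0270). The median over the 20 genes was -0.49, against 0.01 over all genes tested.

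Col6a1 (-0.64, adjusted p = 0.0604) and Col1a2 (-1.40, SE 0.60, adjusted p = 0.215) did not pass. Col4a1 had almost the same effect at both ages, with a difference of -0.11 (95% interval -0.44 to 0.22, adjusted p = 0.792). Single arrays moved the count between 2 and 6 genes. It was 2 without any 1 of P10 mutants 1 or 6 or P10 controls 6 or 9, and 6 without P15 mutant 5, when Col5a2 and Col5a3 also passed, both with few P15 arrays above background. The call of Col3a1 ended in 13 of 28 such fits (highest adjusted p = 0.0725) and that of Col5a1 in 5 (highest 0.0575). Those 13 left out P10 mutants 1, 2 or 6, P10 controls 5, 6, 9 or 10, P15 mutants 1, 2 or 3, or P15 controls 2, 3 or 5, and the 5 left out P10 mutants 1, 4 or 6 or P10 controls 6 or 9. Under median scaling only Col5a3 passed, and the differences of the 4 genes above were -0.90, -1.17, -0.48 and -0.44 in the order named.

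Between the ages, collagen genes of several classes were lower in P15 than in P10 controls. Of the 20 genes 10 fell and 3 rose, where 10.5% of all genes fell and 11.4% rose. The median change was -0.69, against 0.01 over all genes tested. The 10 were Col1a1 and Col5a1 (fibrillar), Col6a1 and Col6a2 (network), Col4a1, Col4a2 and Col15a1 (basement membrane), Col14a1 (FACIT), Col23a1 (transmembrane) and Col26a1. Col14a1 and Col26a1 were detected on every P10 array but on 1 of 6 P15 controls each, and passed the detection filter only with P10 arrays. The filter thus favoured a fall for both, and their calls add little to the count. The 3 that rose were Col7a1, Col17a1 and Col16a1. For 13 of the 20 genes the P15 controls did not overlap the P10 controls of the same slides, where this held for 16% of all genes.

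Col4a1 fell to 48.9% of its P10 level in controls (log2 -1.03, SE 0.13, limma adjusted p = 2.77e-06), with 11.57, 11.78 and 11.91 in P15 controls, against 12.43 to 12.99 in the P10 controls of slides 3 and 4. It was the 1 collagen gene that also passed on slide 3 alone. Col6a2 fell to 49.6% (log2 -1.01, SE 0.15, limma adjusted p = 2.64e-05) with 9.28, 9.40 and 9.59 in P15 controls, against 10.21 to 10.60 in those P10 controls. Col1a1 fell to 47.8% (log2 -1.06, SE 0.21, limma adjusted p = 7.97e-04), with 10.88, 11.18 and 11.51 in P15 controls, against 11.99 to 12.75. Both pairs of groups lay fully apart. Col26a1, a small collagen-related gene known from testis and ovary, also fell (limma adjusted p = 7.66e-05), with 5.15, 5.66 and 6.32 in P15 controls, against 6.68 to 7.32. It was detected on 1 of 6 P15 controls and 10 of 10 P10 controls, so the size of its fall is not well measured.

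Col15a1 had log2 signals of 8.65, 8.95 and 9.29 in P15 controls, against 9.70 to 9.97 in P10 controls on the shared slides, and fell by 0.86 (SE 0.19, limma adjusted p = 0.00213). Col4a2 had 9.88, 10.21 and 10.46 in P15 controls, against 10.66 to 11.72, and fell by 0.76 (SE 0.19, limma adjusted p = 0.00480). Col5a1 had 11.21, 11.28 and 11.41 in P15 controls, against 11.71 to 11.87, and fell by 0.51 (SE 0.14, limma adjusted p = 0.00808). None of these 3 overlapped. Col6a1 fell by 0.91 (SE 0.15, limma adjusted p = 1.32e-04), without overlap. Col14a1 and Col23a1 fell too (limma adjusted p = 0.00224 and 0.00350) and did not overlap. Col14a1 was detected on 1 of 6 P15 controls and Col23a1 on 2 of 6, and both on 10 of 10 P10 controls, so the sizes of these falls are not well measured. Col5a2 did not pass and was detected on 0 of 6 P15 controls, so its change was not measured. Col1a2 (-1.24, SE 0.48, adjusted p = 0.0619) and Col3a1 (-0.62, SE 0.31, adjusted p = 0.166) also did not pass. The second Col3a1 probe passed (limma adjusted p over all detected probes = 1.80e-04), but 2 of 6 P15 controls detected it. Col5a3 (0.24), Col4a5 (0.35), Col4a6 (0.37) and Col18a1 (-0.12, its second probe -0.53) did not pass either.

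The 3 genes that rose with age in controls were Col7a1 and Col17a1, of the dermal-epidermal junction, and Col16a1. Col7a1 rose 1.56-fold (SE 0.21 in log2 units, limma adjusted p = 0.0278), with 8.68, 9.20 and 9.49 in P15 controls, against 8.16 to 8.93 in the P10 controls of slides 3 and 4. Col17a1 rose by 0.58 on the log2 scale (SE 0.17, limma adjusted p = 0.0178; its other probes 0.69 and 0.37, the first past the threshold), with 11.89, 12.41 and 12.62 in P15 controls, against 11.67 to 11.84. Col16a1 rose 1.30-fold (SE 0.12, limma adjusted p = 0.0268), with 12.05, 12.20 and 12.44, against 11.77 to 11.92. The groups overlapped for Col7a1 and lay apart for Col17a1 and Col16a1. The call of Col7a1 ended without P10 control 2, 3 or 4 or P15 control 5 (highest adjusted p = 0.142), that of Col17a1 without P10 control 4 (0.0591) and that of Col16a1 without P10 control 3 or 4 or P15 control 5 (highest 0.0985).

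Scaling bears on the direction of the age calls. Median scaling moved the median of all genes to -0.23 in controls and -0.13 in mutants, and then 0 collagen genes rose and 12 fell in controls. The log2 changes of Col7a1, Col17a1 and Col16a1 were 0.35, 0.41 and 0.16 on that scale (adjusted p from 0.163 to 0.517), above the median of all genes. After adjustment for the muscle score 0 rose and 11 fell. Fibroblast markers changed with age as well, with 0 rises and 6 falls among 10 in controls, and muscle markers with 7 falls among 13. Adipocyte markers gave 4 falls among 7 (median log2 change -0.52), dermal papilla markers 2 among 4, endothelial and smooth muscle and pericyte markers 1 among 6 each, and suprabasal markers 1 rise among 4, and the other lists 0 passes. Their part in the collagen changes was not tested.

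In mutants most fibrillar genes were lower at P15. Of the 20 genes 11 fell and 1 rose, where 6.09% of all genes fell and 6.11% rose, with a median of -1.16 against 0.04 over all genes tested. The mutants of the 2 ages share no slide, so each change was tied through the P10 controls, which lie on both pairs of slides. Its SE is larger than in controls. The 11 were 5 of 6 fibrillar genes, Col6a1, Col6a2, Col4a1, Col15a1, Col14a1 and Col26a1. Among them, Col5a2, Col14a1 and Col26a1 passed the detection filter only with P10 arrays. The filter thus favoured a fall for these genes, and their calls add little to the count. P15 and P10 mutants did not overlap for 11 of the 20 genes, where this held for 19.8% of all genes. Overlap here compares signals on different slides, without the slide term.

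Col1a1 fell to 21.3% (log2 -2.23, SE 0.28, limma adjusted p = 7.21e-06), with 10.00, 10.42 and 11.25 in P15 mutants, against 12.86, 13.09 and 13.48 in P10 mutants. Col3a1 fell to 23.3% (log2 -2.10, SE 0.42, limma adjusted p = 0.00141), with 8.36, 9.26 and 11.39 in P15 mutants, against 11.87, 12.25 and 12.70 in P10 mutants. Every P15 mutant lay below every P10 mutant for both genes, and P15 mutant 5 came nearest for Col3a1. The second Col3a1 probe was detected on 0 of 6 P15 mutants. It was at least 2.35-fold lower by a bound that puts a P15 mutant array no lower than its dimmest detected probe. That bound leaves out the slide term. Col1a2 had the largest fitted change, 6.26-fold lower (log2 -2.65, SE 0.64, limma adjusted p = 0.00703). Its 95% interval, -3.96 to -1.33, held the fitted changes of Col1a1 and Col3a1, so its rank is not settled. The groups overlapped for Col1a2, with detection on 5 of 6 P15 mutants and 6 of 6 P10 mutants. Col6a2 fell to 29.5% (log2 -1.76, SE 0.20, limma adjusted p = 1.75e-06) with 9.24, 9.49 and 10.12 in P15 mutants, against 10.51 at the lowest and 11.21 at the highest in P10 mutants. Col6a1 fell to 34.0% (SE 0.21, limma adjusted p = 1.19e-05), and Col15a1 to 35.9% (SE 0.26, 2.97e-04).

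Col5a2 fell (limma adjusted p = 0.0106), and P15 mutant 5, at 7.42 against a median of 5.59 in P15 mutants, was the 1 of 6 that detected it, so the size of its fall is not well measured. Col14a1 fell (limma adjusted p = 4.97e-04), with detection on 3 of 6 P15 mutants and 6 of 6 P10 mutants, so the size of its fall is not well measured either. Col26a1 fell (limma adjusted p = 1.53e-04) and was detected on 0 of 6 P15 mutants. By the same bound, not corrected for slide, it lay at least 1.91-fold down, so the limit may shift with slide. Col5a1 fell to 44.1% (SE 0.18 in log2 units, limma adjusted p = 7.96e-05), with 10.88, 11.20 and 11.47 in P15 mutants, against 11.70, 12.19 and 12.34 in P10 mutants. Col4a1 fell to 45.4% (SE 0.17, limma adjusted p = 5.50e-05), with 12.08, 12.34 and 12.41 in P15 mutants, against 12.95, 13.19 and 13.51 in P10 mutants. Both lay apart. Col4a5 rose 1.59-fold (log2 0.67, SE 0.21, limma adjusted p = 0.0326), with 7.93, 8.06 and 8.73 in P15 mutants, against 7.36, 7.57 and 7.68 in P10 mutants, and no overlap. That call ended without P10 mutant 1 or 2 (highest adjusted p = 0.0642), and under median scaling Col4a5 did not pass (0.40, adjusted p = 0.385), 0 genes rose and 12 fell. Of the fibroblast markers 7 of 10 fell with age in mutants, of the adipocyte markers 7 of 7, of the muscle markers 1 of 13 and of the Schwann markers 1 of 2. Smooth muscle and pericyte markers and basal keratinocyte markers gave 1 rise among 6 each, and the other lists 0 passes.

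**Figure D3:**
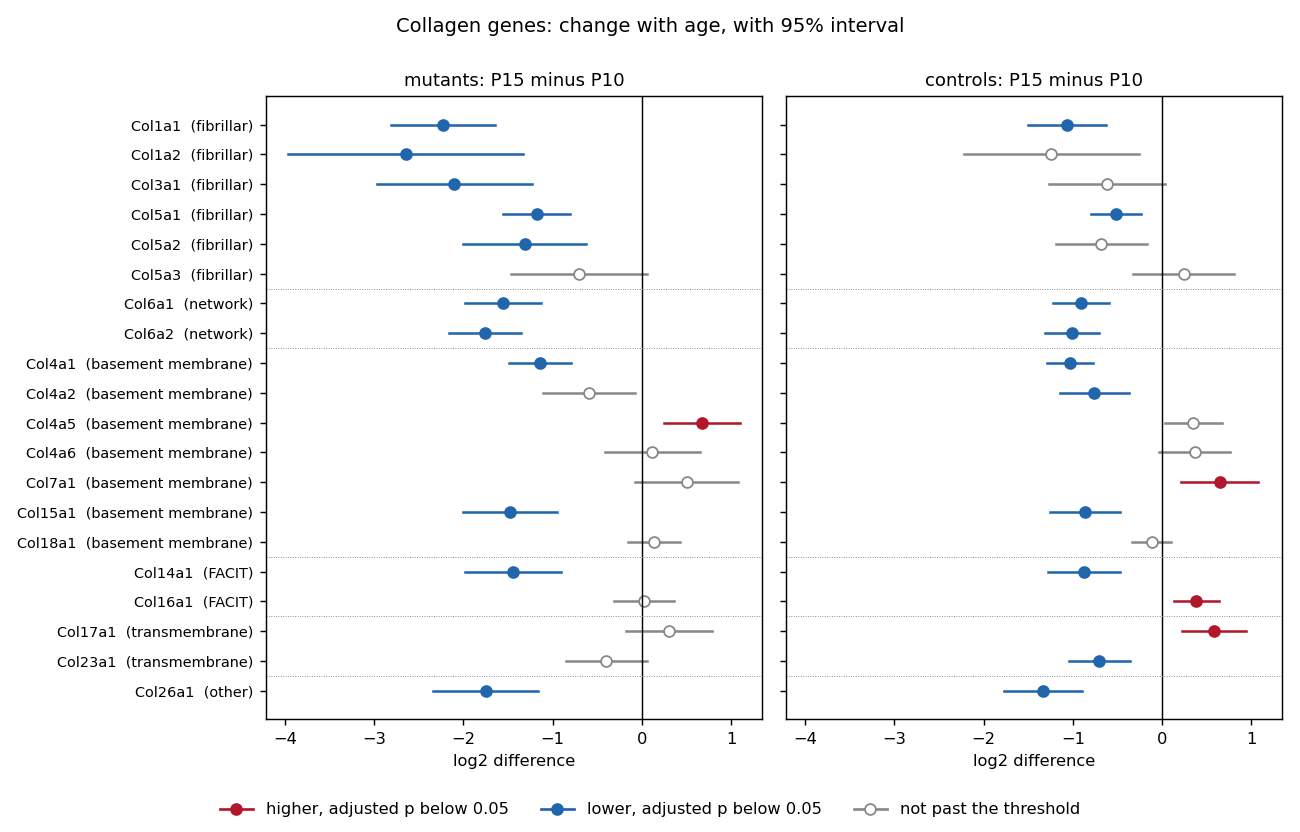
Log2 difference, P15 minus P10, with 95% interval for each of the 20 collagen genes, in mutants and in controls. Filled points passed limma's adjusted p of 0.05. In mutants 11 genes are lower and Col4a5 is higher, and in controls 10 are lower and Col7a1, Col17a1 and Col16a1 are higher.

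**Figure D4:**
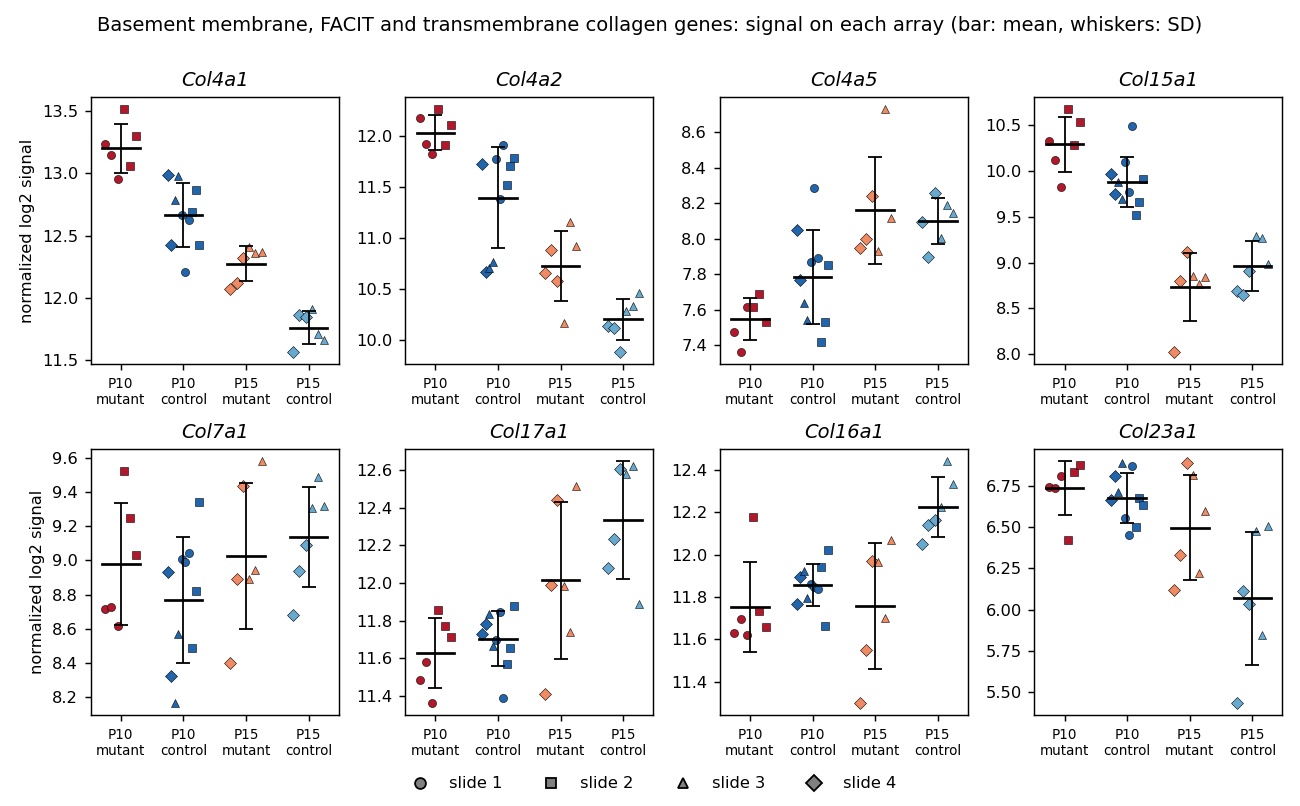
Normalized log2 signal of 8 basement membrane, FACIT and transmembrane collagen genes on each of 28 arrays, by group. Each point is 1 array, its shape gives the slide, the bar is the group mean and the whiskers are the SD. P15 mutants lie above P15 controls for Col4a1, and Col16a1 is lower in P15 mutants with overlap at 1 array.

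Genes that modify, process, bind or degrade collagen were taken as 4 lists. Over all genes tested, 9.39% rose and 9.26% fell at P10, and 9.53% rose and 10.1% fell at P15. For the difference between the effects, 1.88% of all genes were higher and 1.89% lower. A single rise or fall at one age in lists this small lies near these shares. Of 14 detected genes of synthesis and secretion, 3 rose and 1 fell in P10 mutants (median log2 difference 0.19). Serpinh1, the collagen chaperone, rose 1.68-fold (SE 0.21 in log2 units, limma adjusted p = 0.0128), and P3h1, a prolyl 3-hydroxylase, rose 1.57-fold (SE 0.17, limma adjusted p = 0.00860). P3h4, known from collagen hydroxylation complexes, rose 1.34-fold (limma adjusted p = 0.0305), and Plod2, a lysyl hydroxylase of crosslink sites, fell by 0.38 in log2 terms (limma adjusted p = 0.0464). At P15, 0 rose and 1 fell: Creb3l1, a transcription factor of procollagen genes in bone, fell by 0.77 (SE 0.19, limma adjusted p = 0.00571). The effects of Creb3l1 (-0.77 at P15, 0.32 at P10) and P3h4 (-0.27 and 0.42) differed between the ages (limma adjusted p = 0.0241 and 0.0419).

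Of 6 detected genes of processing and crosslinking, 2 rose and 0 fell in P10 mutants. Pcolce, which enhances removal of the C-terminal propeptide, rose 1.90-fold (SE 0.17, limma adjusted p = 4.96e-04), and Loxl1, a lysyl oxidase of elastic fibres, rose 1.56-fold (SE 0.13, limma adjusted p = 8.05e-04). At P15, 0 rose and 1 fell: Bmp1, the propeptide-cleaving protease, fell by 0.32 (SE 0.09, limma adjusted p = 0.0102). The effects of Pcolce (-0.01 at P15, 0.92 at P10) and of Bmp1 (-0.32 and 0.15) differed between the ages (limma adjusted p = 0.0285 and 0.0308). Lox, the lysyl oxidase of fibrils, differed by 0.34 at P10 and -0.24 at P15 and passed at neither age.

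Of 4 detected collagen receptors (Itga1, Itga11, Itgb1 and Ddr1), 0 passed at P10 and 0 at P15, with differences between -0.42 for Itga1 at P10 and 0.13 for Itgb1 at P10. Of 10 detected breakdown genes and inhibitors, 3 rose and 0 fell in P10 mutants: Ctsk, a collagen-cleaving cathepsin, 1.61-fold, Timp1, a metalloproteinase inhibitor, 1.39-fold, and Mmp2, a gelatinase, 1.31-fold. At P15, Timp1 rose 2.42-fold (SE 0.15 in log2 units, limma adjusted p = 5.45e-07) and Timp2 fell by 0.31 (limma adjusted p = 0.0284). Timp1's effect was larger at P15, by 0.80 (limma adjusted p = 0.0268), and that of no other receptor or breakdown gene tested passed this difference.

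**Figure D5:**
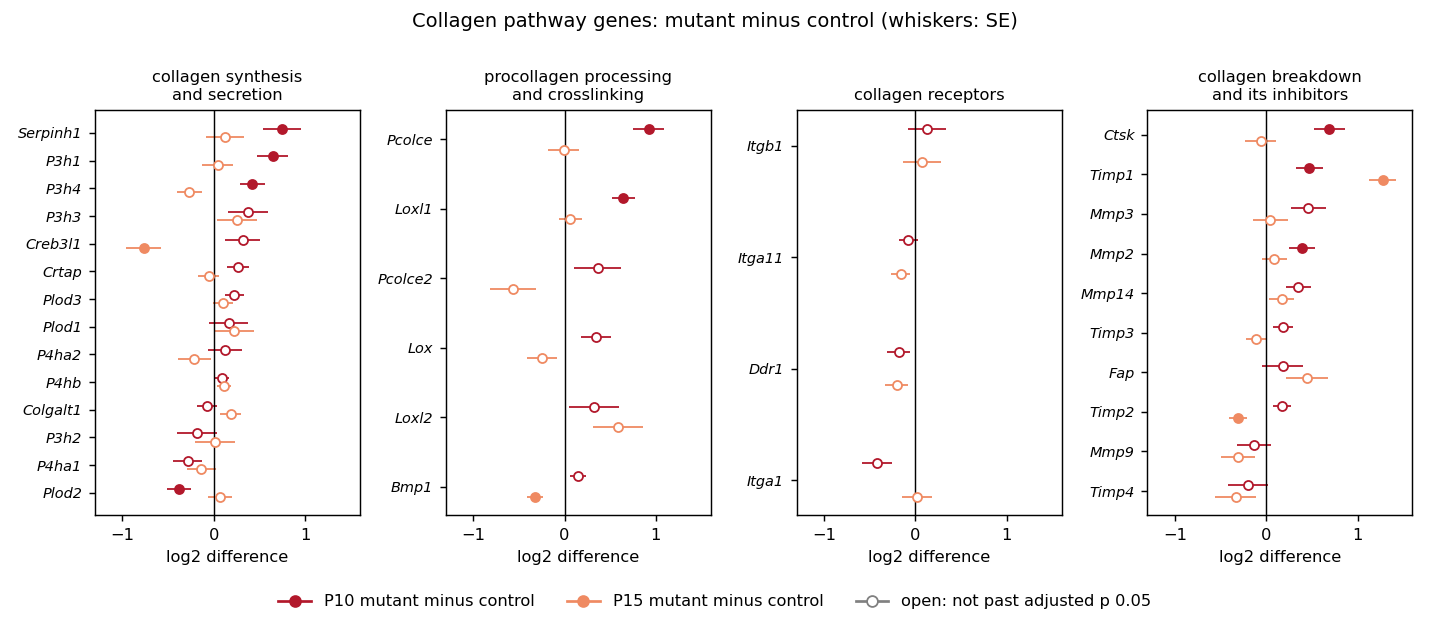
Log2 difference, mutant minus control, at P10 and P15 for the detected genes of 4 lists (synthesis and secretion, processing and crosslinking, receptors, breakdown and inhibitors). Whiskers are the SE and open points did not pass limma's adjusted p of 0.05. Pcolce, Serpinh1 and Ctsk lead the rises at P10, and Timp1 is the 1 gene higher at P15.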

How the data were processed

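Total RNA of dorsal skin was labelled with biotin and hybridised to 28 Illumina arrays on 4 slides, per the labels' protocols. The authors deposited raw bead signals, which are intensity values on a linear scale, and a detection p-value against negative control beads for each probe, per the file headers. The submitters' processing notes name GenomeStudio without a version. The authors' processed intensity values, deposited in another table with no account of their making, kept the rank order of the raw signals, had column medians between 26.5 and 27.2 and lay below 0 in 25.6% of cells, and they served only as an alternative, floored at 16. They are on a linear scale and run in the same direction as the raw signals, and their centring is unknown.

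The deposited raw signals were normalized with limma's neqc (normexp background by detection p-value, offset 16, then quantiles), which returns log2 values. All 12834 detected probes were fitted with lmFit and eBayes (limma 3.58.1, R 4.3.3) on terms for group (4 levels) and slide (4 levels), leaving 21 residual degrees of freedom. The probe with the highest mean stood for a gene, which gave 9045 genes. The platform annotation gives 23978 probes 1 symbol, 0 several and 1719 none. P-values were adjusted by Benjamini-Hochberg over all 9045 genes. A fold is on the normalized log2 scale, and levels of different probes were not compared. Groups were called overlapping within the slides they share. P10 and P15 mutants share none, and their signals were compared across slides without the slide term. The members, marker and pathway lists were chosen with earlier results of these data known. Each detected member is named; full statistics were given to called members with the 3 smallest p-values per class and to the largest rise and fall, and from each pathway list to up to 4 genes. Promoter windows came from RefSeq tables of GRCm38.p6. The fits were tested on simulated data. Residuals of arrays with the same replicate number within an age correlated between -0.20 and 0.40, above 0.1 in 3 of 12 pairs, so the numbers were not treated as pairing the samples. Alternatives covered scaling, the background offset, the filter, the slide term, array weights, the probe choice, the authors' values, muscle content, single slides and leaving out each array.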

Additional observations from a re-analysis of the deposited data

Results flagged for a closer look

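Single arrays stood apart from their group by Dixon's criterion at its 95% level in 5 of 80 combinations of gene and group, and chance gives about 1 in 20. P10 mutant 3 was low for Col5a1 (11.70, next 12.15). P10 mutant 5 was low for Col5a3 (6.72, next 7.07). P10 mutant 4 was high for Col16a1 (12.18, next 11.73) and low for Col23a1 (6.42, next 6.74). P15 mutant 1 was low for Col15a1 (8.02, next 8.76). P10 mutant 4 gave the highest signal of its group for 10 of the 20 collagen genes and P10 mutant 3 the lowest for 11, and P15 mutant 1 the lowest of its group for 9.

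The P15 and P10 effects of 4 collagen genes differed by the interaction test of limma. The difference was -1.17 for Col1a1 (adjusted p = 0.0126), -0.75 for Col6a2 (0.0224), -0.67 for Col5a1 (0.0270) and -1.48 for Col3a1 (0.0336). Each effect was taken within its own pair of slides, so age and slide pair cannot be told apart for mutants.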

How the results depend on the processing

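Of 43 called collagen comparisons, 33 kept their call whichever single array was left out, and 1 (the fall of Col4a1 with age in controls) under every alternative run for it. Calls ended for 12 of 43 with median scaling, 9 with the muscle score, 6 without the slide term, 3 without the filter and 1 with an offset of 50, for 17 of 18 on slide 3 alone and 12 of 18 on slide 4 alone, and for 13 of 18 with the replicate block within age and 16 of 25 with that across ages. They ended for 0 of 43 with array weights, the authors' values, other probe choices or slide as a random block. With 1 array left out at a time, the count of called genes lay between 8 and 10 for P10 (9 as reported) and 2 and 5 for P15 (5). It lay between 2 and 6 for the difference between the effects (4), 10 and 14 for age in controls (13) and 11 and 13 for age in mutants (12). The difference between the effects gave 1 call with median scaling, 2 without the slide term and 8 with array weights. The P15 comparison gave 3 calls without the slide term, 0 on slide 3 alone, 1 on slide 4 alone and 2 with the muscle score as a covariate. Age in controls gave 1 call on slide 3 alone and 6 on slide 4 alone, where fewer arrays enter. With array weights at P10, 11 genes rose and 2 fell, and 4301 of all genes passed, against 1687 without weights. The cause of the other moves was not tested.

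A replicate block with the number within age gave 0 collagen calls at P10, 5 at P15 and 0 for the difference between the effects, and at P10 0 of all 9045 genes passed. Every number shared at P10 joins a mutant to a control on another slide, and the fit also holds the slide term. Under it Col6a1 at P10 had a log2 difference of -0.13 (adjusted p = 0.976), the 1 called value to change sign. Col7a1 at P10, not called at 0.03, was called at -0.33 on slide 1 alone (adjusted p = 0.0185). The sign changed 70 times, in 31 gene comparisons, where the value passed in neither fit. A replicate block with the number across ages, added after the data were seen, gave 10 calls for age in controls and 0 for age in mutants. The block within age could not be fitted for the age changes.

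Signal over background limits Col4a6, Col5a2, Col5a3, Col14a1, Col23a1 and Col26a1, which were not detected on every array of at least 1 group. Col1a2 was detected on 5 of 6 P15 mutants. The change with age in mutants rests on the P10 controls that link the slides, 6 on slides 1 and 2 and 4 on slides 3 and 4.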
